A study of Mus musculus with 4 samples.

Results

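Tight junctions are the belts of membrane strands that seal the space between neighbouring epithelial cells. Claudins form the strands and set which ions and solutes pass, the four-pass proteins occludin and tricellulin sit within them and at the corners where cells meet, and junctional adhesion molecules bind across the gap. On the inner side, the zonula occludens (ZO) scaffolds and cingulin tie the strands to actin. In skin, the sealing junctions lie in the granular layer of the epidermis, and many of their genes are also transcribed in basal keratinocytes.

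The 9 genes described here were chosen by symbol as *Tjp1*, *Tjp3*, *Ocln*, *F11r*, *Cldn1*, *Cldn4*, *Cldn7*, *Cgn* and *Marveld2*, with the requirement of a mean normalized count above 0. All 9 met it, among 17044 genes above 0 of 24421 in all. The data are bulk RNA-seq of hair follicle stem cells (HF-SCs) sorted from mouse back skin, with 2 Ctrl and 2 *miR-205* inducible libraries. The inducible mice carry a transgene, *pTRE2-miR-205*, that is switched on by doxycycline through *Krt14*-rtTA, and so in every keratin 14 positive cell of the skin rather than in HF-SCs alone. The transgene was injected into FVB mice, several lines were made and the one used is not named, whereas the labels give the strain of all samples as C57BL/6. Mice of both groups carried a *Krt14-H2b-GFP* allele. Doxycycline chow was given for 2 d, from postnatal day 42 to day 44. The labels call the Ctrl mice untreated, while the protocol has both groups fed doxycycline. The genotype of the Ctrl mice beyond the *Krt14-H2b-GFP* allele is not stated in the labels, and neither is the number of mice behind each library.

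The values used are the authors' mean normalized count of each gene, averaged over the 4 libraries of both groups together. The comparison of induced with control HF-SCs was not made here, because the table holds no column for a single library and its fold changes and p-values are the authors' own results. The mean is printed with 15 significant digits, however, and since it is a sum of whole reads divided by 4 fixed size factors, the reads of each library could be solved from it for 7 of the 9 genes. Libraries found in this way carry no label. They are named A, B, C and D in order of size factor (1.24, 1.18, 0.966 and 0.716), none of them is assigned to Ctrl or *miR-205* inducible, and library A was 1.73 times as deep as library D. Where nothing says which mice they came from, differences between them may be biological, technical or due to treatment, and these cannot be told apart here.

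Markers of HF-SCs were high. The surface antigens sorted for are encoded by *Cd34* (mean 14575) and *Itga6* (mean 12910). *Krt15*, *Cd34*, *Lgr5* and the other genes of a list of 7 HF-SC markers had means from 590.3 (*Tcf7l1*) to 119883 (*Krt15*). *Ly6a*, which encodes the Sca1 antigen that was sorted against, had a mean of 136. The 6 endothelial markers had means from 5.63 to 36.4, whereas 6 suprabasal keratinocyte markers summed to 21245 and 4 upper follicle markers to 20575. The 6 fibroblast markers summed to 14151.5, led by *Col1a1* with 5186, a level above that of all but 1 of the 9 tight junction genes before division by length. The sums were 3773 for 5 sebaceous, 3534 for 5 immune, 974 for 5 melanocyte and 182 for 3 Merkel and simple epithelium markers. In bulk samples, fewer cells of a type and less RNA per cell cannot be told apart. Libraries C and D stood apart in these genes. Of 25 markers of suprabasal, sebaceous, endothelial, fibroblast, immune and melanocyte cells whose reads were solved, 18 were highest in library C and 18 were lowest in library D (72% each), against 25.71% and 23.67% of all 8506 solved genes with a mean over 50. Of the 14 such markers that also had a mean over 50, 64.29% were highest in C and 71.43% lowest in D. The 3 Merkel and simple epithelium markers, not among the 25, had 1 highest in C and 0 lowest in D.

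*miR-205* silences mRNAs mainly through pairing of its seed, bases 2 to 8 of the mature strand, with sites in the 3′UTR. The mature sequence (RefSeq, GRCm38.p6) is shown with the seed in capitals, and below it are matches found in the 3′UTRs of 4 of the 9 genes, with the bases that pair with the seed in capitals. A match of 7 bases is ATGAAGG and a match of 6 is TGAAGG, searched on the transcribed strand only, and every 7-base match also holds the 6-base one.
miR-205-5p: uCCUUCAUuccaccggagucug
Tjp1: tggaactgATGAAGGttagcga
Cgn: cttgtgggTGAAGGtaatggg
Ocln: ctttgatgTGAAGGttcacac
Cldn4: tatggggcTGAAGGcagaagc

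Only the *Tjp1* 3′UTR, in the longest GENCODE vM1 coding transcript of each gene that has one, held the 7-base match ATGAAGG. It lies at chr7:72442313-72442319 on the minus strand (NCBIM37), in the 3′UTR part of exon 28 of 28, at base 140 of a 3′UTR of 1408 bases. A 7-base match occurs in 9.53% of 19915 genes with an annotated 3′UTR, in 10.86% of those with a mean above 0, and in 12.24% of 6881 genes whose 3′UTR is of similar length to that of *Tjp1*. *Cgn* holds 2 matches of 6 bases, and the 1 shown is in exon 21 of 21, at chr3:94564155-94564160. The other, at chr3:94564993-94564998 and base 284 of the 3′UTR, is the only match of these genes followed by an A. That A can pair with the first base of *miR-205*, a u, which lengthens the match on the side away from ATGAAGG. Matches followed by an A were not counted apart and are not among the 7-base matches given here. That of *Ocln* is in exon 9 of 9, at chr13:101268429-101268434, and that of *Cldn4* is in its only exon, at chr5:135421722-135421727, all on the minus strand. With these, 4 of the 9 genes hold a match of 6 or more bases, beside 34.09% of genes with a 3′UTR and a mean above 0 and 30.31% of all genes with a 3′UTR, without matching on 3′UTR length. The 3′UTRs of *Tjp3* (80 bases), *Marveld2* (1332), *F11r* (1509), *Cldn1* (2396) and *Cldn7* (168) hold neither match. Whether any of these matches is bound was not measured in these libraries. In a separate experiment, CLEAR-CLIP, which captures mRNAs joined to their miRNA, the authors list *Tjp1*, *Cldn1* and *Cldn4* as bound by *miR-205*.

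The 9 genes spanned more than 3 orders of magnitude in level. Ranked among the 17044 genes with a mean above 0, *Cldn1*, which encodes the claudin required for the water barrier of mouse epidermis, had a mean of 8068 at percentile 98.7. *F11r*, which encodes junctional adhesion molecule A, had a mean of 4907 at percentile 97.5. The scaffold gene *Tjp1* (ZO-1) had a mean of 1481 at percentile 90.5, and *Cldn4* a mean of 895 at percentile 84.0. Occludin, encoded by *Ocln*, followed with a mean of 431 at percentile 72.01. The remaining scaffold genes *Cgn* (cingulin) and *Tjp3* (ZO-3) lay close together, with means of 175 and 169. *Marveld2*, which encodes tricellulin, had a mean of 82.5 at percentile 45.3. *Cldn7* stood far below the other 8 with a mean of 3.15 at percentile 17.6.

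Of the 9 genes, 8 had a mean over 50, and their median was 430.5. A mean over 50 was found for 60.68% of the 17044 genes above 0, the requirement that the 9 also met, and for 42.35% of all 24421. A further 56 tight junction genes, listed by role, had 29 over 50 (51.79%), 8 at 0 and a median of 116.5. The 6 genes of the adherens junction, the cadherin-based contact that lies beside the tight junction in polarized epithelia, all had means over 200 with a median of 9285.

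Counts rise with transcript length, so levels were compared between genes per kilobase of the longest annotated transcript. On this scale *Cldn1* had 2485 and *F11r* 1949 mean normalized counts per kb, and *Cldn4* with 495 passed *Tjp1* with 210, because the *Cldn4* transcript is 1809 bases long and that of *Tjp1* 7049. *Ocln* had 106 and *Tjp3* 55.8 mean normalized counts per kb. *Cgn* had 34.9, *Marveld2* 26.9 and *Cldn7* 2.36. The median of 14644 genes with a mean above 0 and an annotated length was 56.3, so that 5 of the 9 lay above it and *Tjp3* almost on it.

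**Figure D1:**
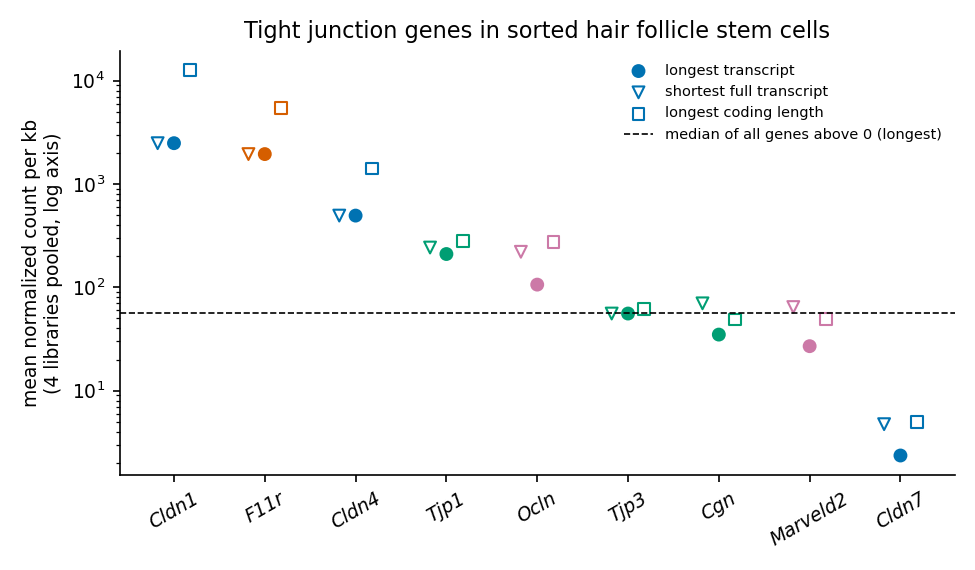
Mean normalized count per kb of transcript (log axis) for the 9 genes, from all 4 libraries pooled, with the longest transcript as filled circles, the shortest full transcript as open triangles and the longest coding length as open squares; colours mark the protein families and the dashed line is the median of all genes above 0 at 56.3. *Cldn1* and *F11r* lead on each length and *Cldn7* is lowest on each, while *Tjp3*, *Cgn* and *Marveld2* change places.

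The top 5 places were the same with each of the 3 lengths. With the shortest full transcript *Tjp3* fell behind *Cgn* and *Marveld2*, and with the coding length *Marveld2* and *Cgn* changed places, so the order of these 3 depends on which transcript is taken. Library by library, *Cldn4*, *Tjp1*, *Ocln*, *Tjp3* and *Cgn* kept this order per kb in 4 of 4 libraries, with ranges that did not overlap between neighbours. The solved reads of *Tjp1* are less certain than those of the others. The ranges of *Cgn* (29.8 to 39.5 normalized reads per kb) and *Marveld2* (21.9 to 31.4) overlapped, although *Cgn* was the higher of the pair in each library. Whether *Cldn1* and *F11r*, which differed 1.28-fold per kb in the mean, differ beyond the spread over libraries could not be examined, since their reads were not solved.

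Among claudins, 2 genes accounted for nearly all of the signal. The table lists 23 claudin genes, of which 7 were at 0 and 13 lay above 0 but not over 50. *Cldn1* held 79.8% and *Cldn4* 15.9% of the summed claudin level per kb of longest transcript. *Cldn12* was the only other claudin with a mean over 50, at 263 and 2.35% of the sum, and *Cldn8* followed with a mean of 46.7. *Cldn7* held 0.0757% and ranked below 11 other claudins on this scale. With coding lengths in place of transcript lengths, *Cldn1* held 86.7% and *Cldn4* 9.66%.

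The pairs of related genes were unequal as well. *Cgn* held 10.5% of the summed level per kb of cingulin and its paralogue *Cgnl1* (paracingulin), whose mean was 2016. *F11r* held 99.5% of the level of the 3 junctional adhesion molecule genes, with 0.254% for *Jam2* and 0.259% for *Jam3*. Of the 3 tight junction MARVEL genes, *Ocln* held 58.9%, *Marveld3* 26.2% and *Marveld2* 14.9%.

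The other tight junction genes differed widely in level within and between roles. Of the 12 scaffold genes outside the 9, 11 had a mean over 50, among them *Mpp5* (the polarity scaffold PALS1, mean 2388). *Cxadr*, the coxsackie and adenovirus receptor, had a mean of 6111, and the next immunoglobulin-type gene outside the 9, *Clmp*, had 33.4, with *Igsf5* at 0. The related MARVEL gene *Marveld1* had a mean of 1385 and *Marveld3* 116. Of the angulins, which place tricellulin at cell corners, *Lsr* had a mean of 567 and *Ildr1* 117. Among 8 polarity genes 7 had a mean over 50, led by *Prkci* (2220) and *Pard6g* (1352), and all 5 regulators did, led by *Ybx3* (4043) and *Sympk* (992).

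**Figure D2:**
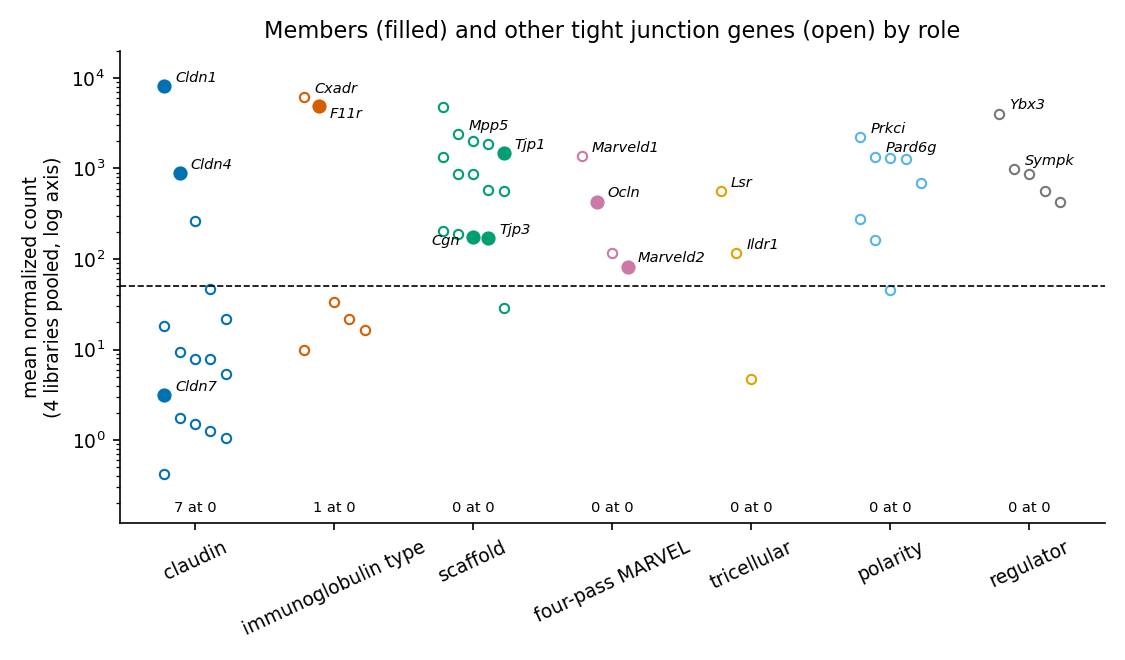
Mean normalized count (log axis, 4 libraries pooled) of the 9 genes as filled points and of 56 other tight junction genes as open points, grouped by role, with the dashed line at 50 and the number of genes at 0 written below each role. The claudins spread from 8068 for *Cldn1* down to 7 genes at 0, whereas 11 of the 12 other scaffold genes lie above the line.

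The solved reads give the spread of each gene over the 4 libraries. All values that follow are reads of libraries A, B, C and D in this order, then the same reads divided by the size factor, and 95% intervals are exact Poisson intervals that cover counting error only.

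*Tjp1*, the scaffold with the 7-base *miR-205* match shown above, had 2010, 1586, 1439 and 1049 reads, or 1625, 1345, 1489 and 1464 normalized reads. These reads are less certain than those of the other solved members, since 1.71 sets of reads were expected by chance and 1 was found. The libraries lay close together, library B was lowest, and only the intervals of A and B were separate. The highest value was 1.21 times the lowest, beside a median of 1.22 for 1404 solved genes with a mean within 2-fold of that of *Tjp1*. *Tjp3* had 207, 218, 159 and 113 reads, or 167, 185, 165 and 158 normalized reads. All 4 intervals overlapped and its highest value was 1.17 times the lowest, against a median of 1.34 for genes of like mean. *Cgn* had 245, 185, 189 and 107 reads, or 198, 157, 196 and 149 normalized reads. Libraries A and C were a little above B and D, the ratio of highest to lowest was 1.33 (median of like genes 1.34), and no pair of intervals was separate.

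*Ocln* varied more than its neighbours in level. It had 667, 387, 363 and 343 reads, or 539, 328, 376 and 479 normalized reads. Library A was highest and library B lowest, and the intervals were separate in 4 of 6 pairs, namely A and B, A and C, B and D, and C and D. The ratio of 1.64 was larger than that of 93.4% of 4005 solved genes of like mean, whose median was 1.25. *Marveld2*, which lies next to *Ocln* on chromosome 13, had 106, 79, 93 and 58 reads, or 85.7, 67.0, 96.2 and 81.0 normalized reads. Library C was highest and B lowest, all intervals overlapped, and the ratio of 1.44 was near the median of like genes (1.503).

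*Cldn4* had the widest spread of the 6 solved members with a mean over 50. It had 1177, 835, 1267 and 436 reads, or 952, 708, 1311 and 609 normalized reads. Library C stood highest and library D lowest, and every pair of intervals but that of B and D was separate. The ratio of 2.15 exceeded that of 98.2% of 2822 solved genes of like mean, whose median was 1.23. It was 1.85 without library D and 1.56 without library C. *Cldn7* had 4, 2, 2 and 4 reads, or 3.23, 1.70, 2.07 and 5.58 normalized reads, so that its ratio of 3.29 rests on 12 reads. Differences between libraries were not detectable for *Cldn7* at this depth.

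**Figure D3:**
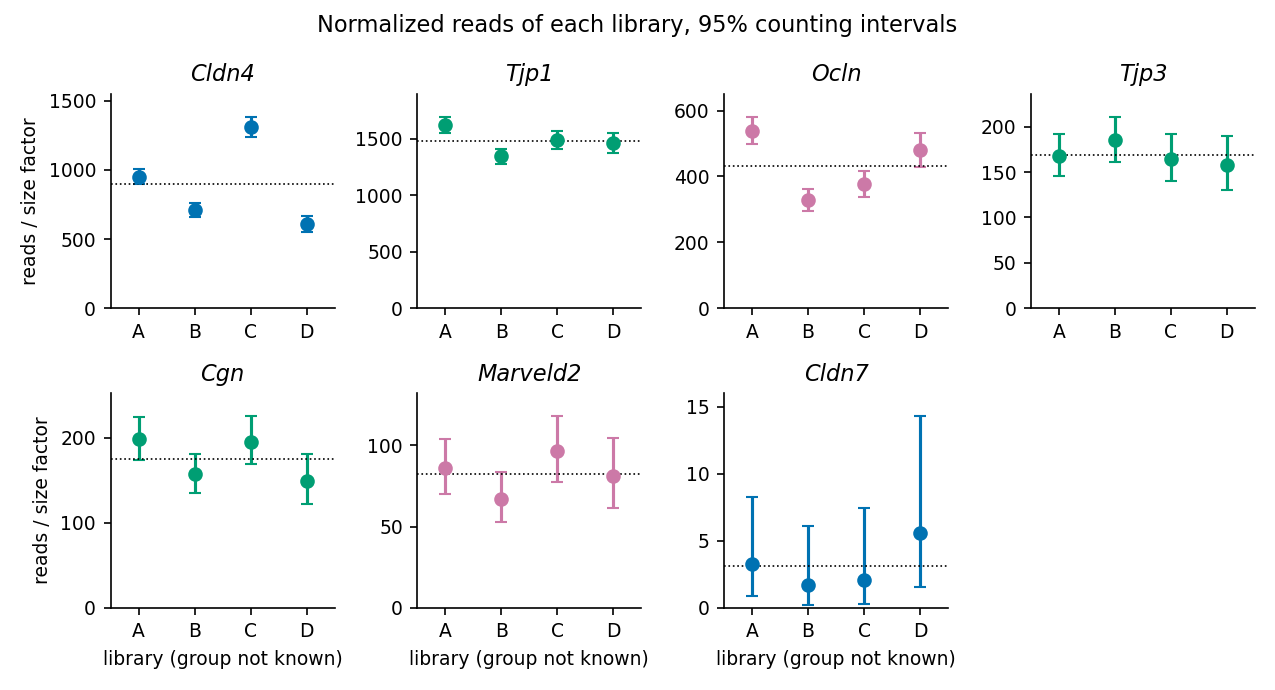
Reads divided by size factor (linear axes from 0) for the 7 genes whose reads were solved, in libraries A to D, with 95% exact Poisson intervals as bars and the mean of the 4 libraries as a dotted line. *Cldn4* ranges from 609 in library D to 1311 in library C and *Ocln* from 328 in B to 539 in A, whereas the intervals of *Tjp3*, *Cgn*, *Marveld2* and *Cldn7* overlap throughout.

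**Figure D4:**
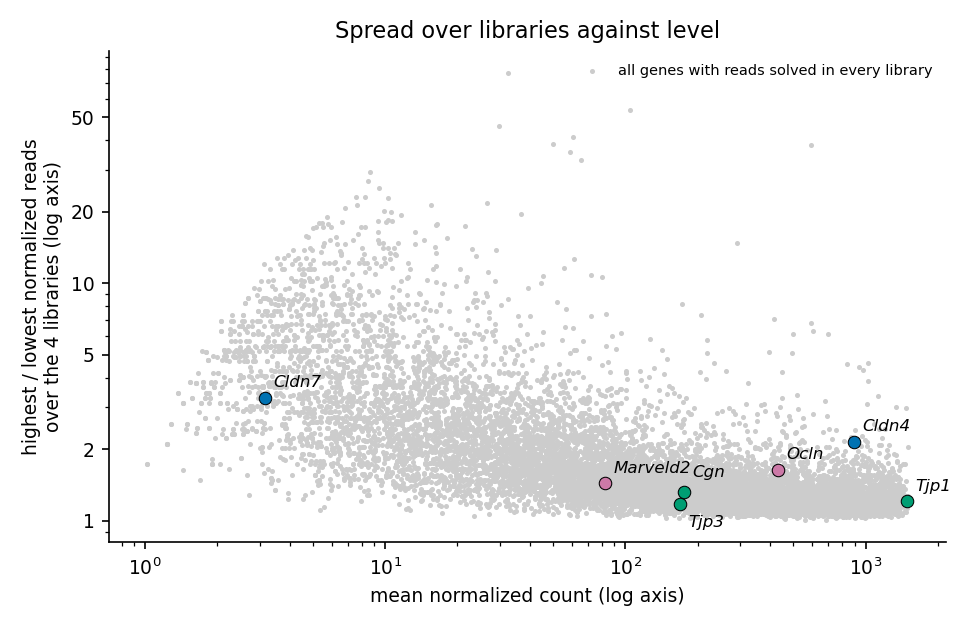
Ratio of highest to lowest normalized reads over the 4 libraries against the mean normalized count (both log axes), for all genes with reads solved and above 0 in every library (grey) and for the 7 members (labelled). *Cldn4* at 2.15 and *Ocln* at 1.64 lie near the upper edge of the cloud at their level, and the other 5 lie within it.

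Ratios between members within a library do not depend on its size factor, but those to *Tjp1* rest on its less certain reads. Per kb, *Cldn4* had 2.28, 2.05, 3.43 and 1.62 times the level of *Tjp1* in libraries A to D, and it was the higher gene in each. *Ocln* had 0.577, 0.424, 0.439 and 0.569 times the level of *Tjp1*. *Tjp3* had 0.240, 0.320, 0.258 and 0.251 times the level of *Tjp1*, a narrower range than for *Cldn4*. The level of *Marveld2* relative to *Ocln* was 0.210, 0.270, 0.339 and 0.224, and that of *Cgn* relative to *Tjp3* was 0.714, 0.512, 0.717 and 0.571. The mRNA of occludin thus lay above that of tricellulin, and that of ZO-3 above that of cingulin, in 4 of 4 libraries by the longest transcripts.

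The pattern of *Cldn4*, highest in C and lowest in D, was also that of several markers of other cell types. Summed normalized reads of 5 melanocyte markers were 843, 691, 2020 and 342 in libraries A to D, and those of 3 suprabasal markers with solved reads were 999, 1131, 2047 and 690. The 6 endothelial markers, which include the tight junction genes *Cldn5* and *Esam*, summed to 119, 126, 161 and 48.9. The sums of the 4 sebaceous markers (841, 839, 702 and 371) and the 3 fibroblast markers (1038, 767, 1078 and 593) were also lowest in D. The sum of the 4 immune markers (556, 1093, 958 and 551) was lowest in D and A, but 0 of these 4 genes was lowest in D. The sum of the 3 Merkel and simple epithelium markers (133, 180, 194 and 221) was instead highest in D and lowest in A. Most of it came from *Krt8* (127, 171, 164 and 202), while *Krt18* was highest in C and *Krt20* in B. None of the 7 HF-SC markers was at or near 0 in the mean. Only *Tcf7l1* of these 7 had solved reads (518, 569, 604 and 670 normalized), also highest in D. The part of these cell types in the spread of *Cldn4* was not tested. *Ocln* was highest in A and second in D, an order that none of these summed lists had.

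**Figure D5:**
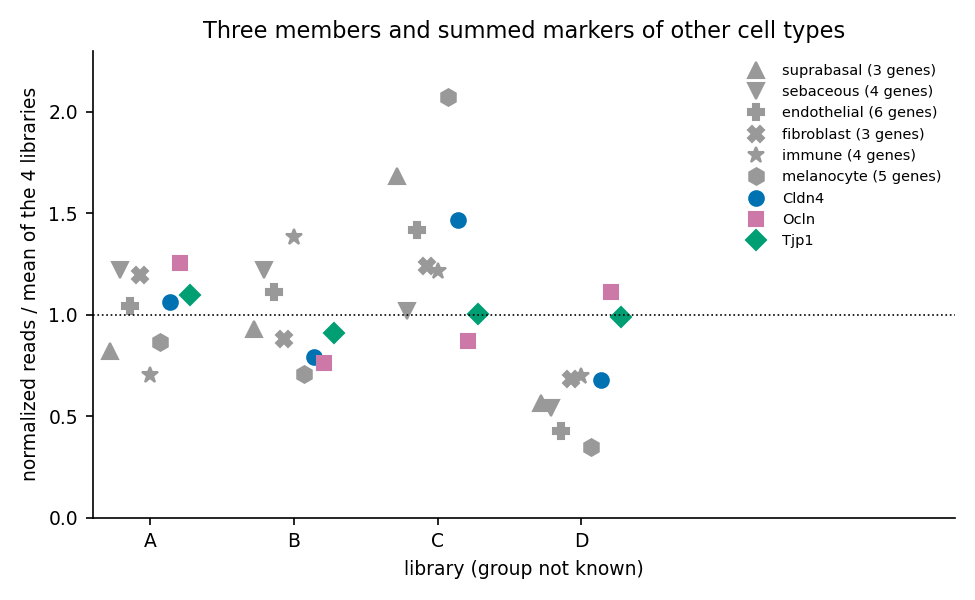
Normalized reads divided by the mean of the 4 libraries (linear axis from 0) for *Cldn4*, *Ocln* and *Tjp1* in colour and for summed markers of 6 other cell types in grey, in libraries A to D. In library D *Cldn4* and all 6 marker sums lie below 1 while *Ocln* lies above it, and in library C *Cldn4* and all 6 sums lie above 1 while *Ocln* lies below it. The Merkel and simple epithelium markers are not drawn, and their sum was highest in D.

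On NCBIM37 with GENCODE vM1, *Ocln* (chr13:101266462-101322673) and *Marveld2* (chr13:101365912-101386926) are direct neighbours on the minus strand, 43238 bases apart. *Cldn4* (chr5:135420996-135422804) is a gene of 1 exon, and its neighbour 39279 bases away is *Cldn3*, which had a mean of 5.40. *Cldn1* (chr16:26356728-26371927) lies 91293 bases from *Cldn16*, which was at 0. *Cldn7* is at chr11:69778281-69781387, *F11r* at chr1:173367666-173394734 and *Tjp1* at chr7:72441051-72516125. *Tjp3* (chr10:80735952-80754012) shares 40 bases with *Apba3* on the opposite strand, and the annotated span of *Cgn* (chr3:94464507-94590414) overlaps *Selenbp2* on the opposite strand and a pseudogene and a noncoding transcript on its own. The library kit keeps strand but the strand setting of the counting is not given in the sources used here, so reads in these overlaps are uncertain.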

How the data were processed

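RNA from sorted HF-SCs of 2 Ctrl and 2 *miR-205* inducible samples was sequenced from strand-keeping libraries. Paired-end reads of 150 nt were mapped by the authors using HISAT2 2.1.0 and handled using SAMtools 1.3.1 (versions from the submitters' processing notes), then tallied per gene by HTSeq and passed to DESeq2. Not given in the sources used here were the annotation, the HTSeq settings and the versions of HTSeq and DESeq2. The build is named as mm10 in the labels and NCBI37/mm10 in the methods. The deposited table holds a signal, the authors' mean of counts over size factors across the 4 libraries, which was used. Its log2 fold change, standard error, statistic and p-values are the authors' comparison of the groups and were not used, so no test was run.

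A gene with 1 read in 1 library gives the weight of that library in the mean, and 4 such weights were found. Sets of whole reads that give the printed mean within its rounding were then enumerated for 15450 genes with a mean up to 1500. Exactly 1 set was found for 15208, and none of the 15450 lacked one. All 14069 genes for which under 0.05 chance sets were expected had exactly 1. For *Tjp1*, 1.71 chance sets were expected and 1 set was found, so its reads are not told apart from a chance set in this way. For *Cldn4*, 0.0704 chance sets were expected and 1 set was found. *F11r* and *Cldn1* were not tried, since 86.8 and 487 chance sets were expected. Solved genes held 4305976, 3995859, 3270812 and 2444698 reads in libraries A to D, which is a part of each library. On simulated data of 2903 genes, all 2815 with 1 set were the simulated reads. Counting error is given as exact Poisson intervals, which do not cover variation between mice or libraries.

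Lengths, 3′UTRs and places are from GENCODE vM1 on NCBIM37, and no coordinate was converted. All 9 genes are named, with the 2 highest genes of each other role and nearest relatives, leaving out what is withheld for evaluation. *Cldn3*, *Cldn5*, *Cldn16*, *Esam*, *Col1a1*, *Amotl2*, *Pard6b*, *Magi3*, *Amot*, *Arhgef18*, *Arhgap17* and overlapping genes were named after their values were seen. The members, lists and tests were chosen with earlier results of these data known. Alternatives were other lengths, floors of 10 and 200, genes over 50 as reference, totals in place of size factors, each library left out and a tolerance 10 times tighter or looser. Python 3.11.15, numpy 2.4.6, scipy 1.17.1, numba 0.67.0 and matplotlib 3.10.9 were used.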

Additional observations from a re-analysis of the deposited data

How the results depend on the processing

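Levels per kb depended most on the length used: the median of the 9 genes was 106 mean normalized counts per kb with the longest transcript, 221 with the shortest full transcript and 275 with the coding length. Their median percentile was 72.01 among genes above 0 and 63.8 among genes over 50, where *Cldn7* has no rank. The number of other tight junction genes above the floor was 29 over 50, 37 over 10 and 25 over 200. Leaving out each library in turn (for the spread, an alternative added after the data were seen) moved the median level of the 7 solved genes from 175 to between 169 and 184, and their median ratio of highest to lowest from 1.44 to between 1.33 and 1.44. For single genes the ratio without 1 library ranged from 1.44 to 1.64 for *Ocln*, from 1.189 to 1.44 for *Marveld2*, from 1.56 to 2.15 for *Cldn4* and from 1.91 to 3.29 for *Cldn7*. Without library D the ratio of *Cldn7*, which rests on 12 reads, was 1.91. Totals of solved reads in place of size factors gave a median level of 179, an alternative added after the data were seen, and a median ratio of 1.44.

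A tolerance 10 times tighter than the printed rounding left 3 of the 9 genes with exactly 1 set of reads, as it is narrower than the rounding itself. With one 10 times looser, *Tjp1* had 14 sets and the other 6 genes 1 each. No paired analysis was possible because the table holds no column for a single sample, and edgeR, DESeq2 and leaving out a labelled replicate were not run for the same reason. Totals over all genes were not used, since the most abundant genes were not solved.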

Other observations

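The normalized reads of *Ocln* lay at 539 and 479 in libraries A and D and at 328 and 376 in libraries B and C, with separate counting intervals between these pairs and overlapping ones within them. No label ties these libraries to a group, and this division was seen in the values themselves. It was not particular to *Ocln*. *Amotl2* and *Pard6b* were also higher in A and D than in B and C (highest over lowest 1.78 and 2.77). So were *Magi3*, *Amot*, *Marveld3*, *Pard6g*, *Arhgef18* and *Arhgap17*, among 20 solved other tight junction genes with a mean over 50. The remainder of the 20 did not divide in this way. Of the members, *Cldn7* did on 12 reads, whereas *Tjp1*, *Tjp3*, *Cgn*, *Marveld2* and *Cldn4* did not. The share of all solved genes with this division was not counted.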
